A study of Mus musculus with 8 samples.

Results

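The proteasome subunit genes of mouse epididymal fat were examined after loss of Atg3 in adipocytes. They were taken from the deposited gene table by name and type: protein-coding rows whose symbol starts with Psm, continues with a letter from a to g and then has a digit. The rule found 49 of the 37417 genes, and 47 of them passed the filter on low counts that also kept 14800 genes of the table. Of the 5 immunoproteasome genes that the rule keeps as a subgroup, Psmb8, Psmb10, Psme1 and Psme2 are described; Psmb9 was not analysed here. The name rule also took Psmc3ip, which encodes a protein of meiotic recombination and not a proteasome subunit, and Psme2b-ps, a copy of Psme2 that the table lists as protein-coding.

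The study compared 4 knockout (KO) with 4 wild-type (WT) male mice. KO mice carried Adiponectin-Cre ERT2 with Atg3 flox/flox, so that Cre is made under the promoter of adiponectin, a gene of adipocytes, and acts on both Atg3 alleles once tamoxifen is given. Mice of both genotypes were of the C57Bl/6 strain, ate chow and received tamoxifen, and the labels give no age. Whole epididymal adipose tissue was used, so vessel, stromal and blood cells without Cre activity contributed RNA to every library, and each library is 1 mouse of the labels. Total counts were 12952190 to 21688464 in KO libraries and 10986375 to 17128811 in WT libraries.

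The proteasome is the large protease that degrades proteins tagged with ubiquitin. Its 20S core is a barrel of alpha and beta rings, with the peptide-cutting sites on the beta subunits Psmb5, Psmb6 and Psmb7, and its 19S cap recognises ubiquitin, unfolds the substrate with ATPases and removes the tag. Interferon-induced Psmb8, Psmb9 and Psmb10 take the place of the catalytic subunits in the immunoproteasome, which is abundant in leukocytes and produces peptides for MHC class I. The proteasome and autophagy are the main routes of protein breakdown in cells, and in brown fat the transcription factor Nfe2l1 is known to raise proteasome genes when proteasome activity falls short.

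The transcript of the deleted gene separated the genotypes. Atg3, the enzyme that attaches LC3-family proteins to lipid, had 27.8 to 32.2 CPM (counts per library total, scaled for library composition by the TMM method) in KO libraries, against 44.5 to 53.6 CPM in WT libraries. The share of counts from mitochondrial genes was 5.03 to 6.08% in KO and 3.06 to 4.93% in WT libraries. The 10 adipocyte markers summed to 27860 to 32430 CPM in KO and 32590 to 39870 CPM in WT libraries, and none was at 0 in any library. The 14 duct epithelium markers summed to 46.7, 530.2, 540.5 and 51.2 CPM in KO libraries 1 to 4, against 14.03 to 32.0 CPM in WT libraries, with Cldn7 and Pax8 at 0 in some library. The 8 endothelial markers, each with a log2 fold change below 0 under all 4 scalings, summed to 1259 to 1443 CPM in KO and 1571 to 1797 CPM in WT libraries, with no marker at 0. The 17 leukocyte markers measured summed to 1015 to 1451 CPM in KO and 889 to 1673 CPM in WT libraries, again with none at 0.

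No proteasome gene passed the test, and most sat slightly higher in KO fat. With edgeR's quasi-likelihood test and Benjamini-Hochberg adjustment over all genes, 0 of 47 reached an adjusted p of 0.05, where 60 of the 14800 genes tested, or 0.405%, did, 0.277% being higher in KO fat. The lowest adjusted p among the 47 was 0.171, that of Psmd10. At an unadjusted p of 0.05, 6 of the 47 (12.8%) stood out, all higher in KO fat, beside 16.2% of all genes and 8.52% that were higher. This count depended on the scaling. It was 6 with RLE, 8 with upper quartile and 13 with library totals, beside 2386, 2380 and 2285 of the 14800 genes (edgeR). DESeq2 called 1, which was higher (2.13%, beside 5.48% of all genes called and 3.52% called higher) and limma-voom 0 (beside 0.304% of all genes). The log2 fold change, KO over WT, was above 0 for 39 of the 47 (83%), beside 47.6% of all genes, with a median of 0.096 (1.07-fold) over the 47 and -0.013 over all genes; with the other scalings 41 or 42 of the 47 were above 0. The intervals of 44 genes lay within a 1.5-fold change either way, and those of 41 included no change.

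**Figure D1:**
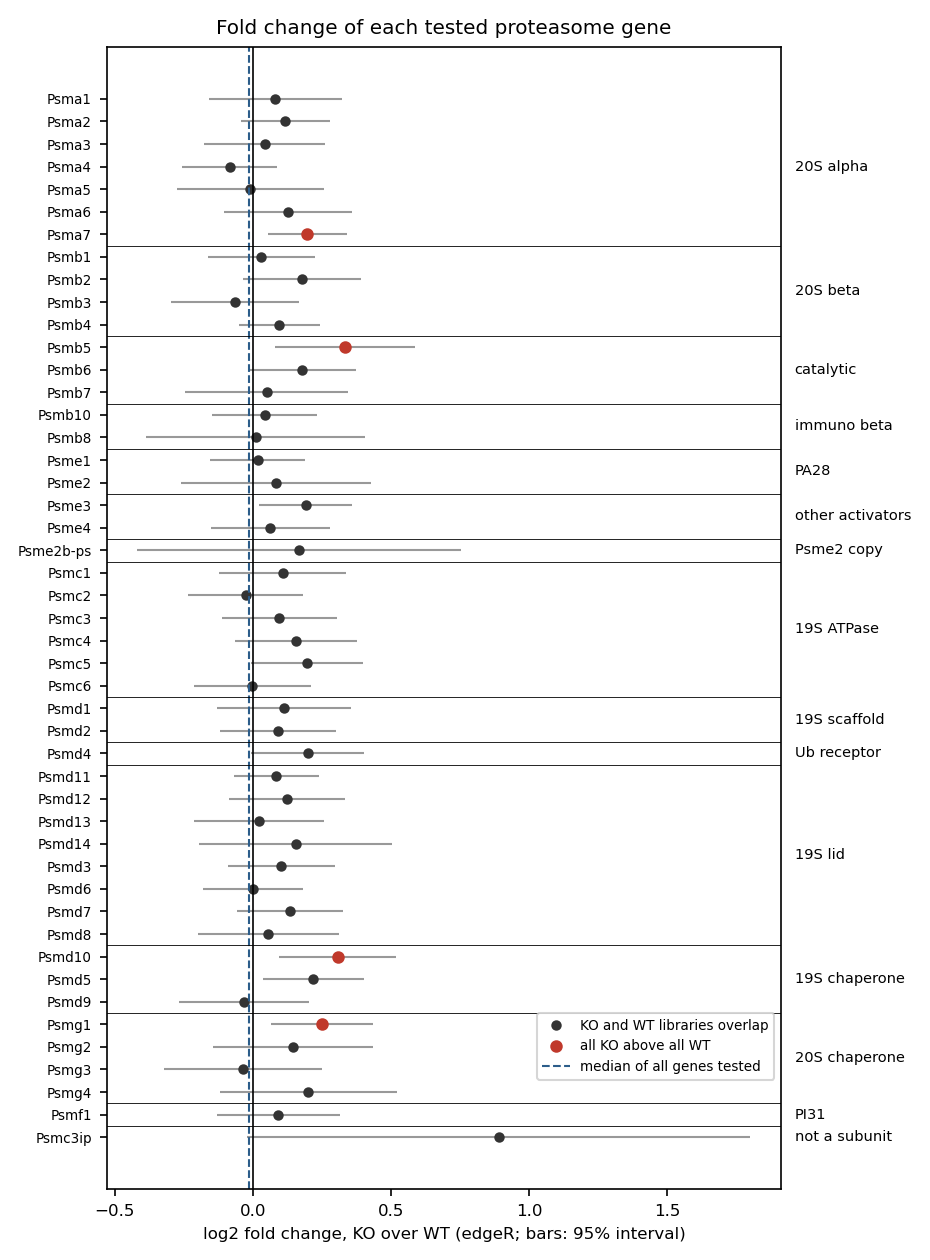
Log2 fold change of the 47 tested proteasome genes, KO over WT, on the x axis, with 95% intervals as bars and genes ordered by role. Most points lie between the dashed line at -0.013, the median of all tested genes, and 0.33; Psmd10, Psma7, Psmg1 and Psmb5 are in red because every KO library was above every WT library.

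Before scaling for library composition, the proteasome genes took a larger share of all reads in each KO library than in any WT library. Together the 49 genes held 0.370, 0.372, 0.351 and 0.362% of counts in KO libraries 1 to 4, against 0.325, 0.326, 0.346 and 0.347% in WT libraries 1 to 4. KO library 3 was the lowest of its genotype and WT library 4 the highest of its own, and they were close. This share is not scaled for library composition. The TMM factors, the scaling numbers that compensate for it, ran from 0.961 to 1.05 in KO and from 0.937 to 1.06 in WT libraries. TMM-scaled values did not keep the genotypes apart in this way. With each of the 31 constitutive core and cap genes taken against its own mean, the median was -0.073 (log2) in KO library 3. WT libraries 3 and 4 were higher, at 0.083 and 0.006. After TMM scaling, each KO library was above each WT library for 4 of the 47 genes (8.51%), where this held for 4.32% of all genes and a lack of overlap in either direction for 8.86%; with library totals alone it held for 12 of 47, beside 5.02% of all genes. 0 of the 47 had all KO libraries below all WT libraries.

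The 4 genes without overlap come from different places in the particle: a cap chaperone, an alpha subunit, a core chaperone and a catalytic beta subunit. Psmd10 (chrX:140948429-140956728, minus strand, mm10) encodes gankyrin, a chaperone that holds ATPases of the 19S base during assembly. Its level was 20.8, 21.0, 20.6 and 20.5 CPM in KO libraries, against 15.3, 16.6, 18.9 and 16.3 CPM in WT libraries. The KO values were nearly equal and the WT values spread below them (20.7 ± 0.226 against 16.8 ± 1.504 CPM, SD, n = 4 each; log2 fold change 0.31, SE 0.094, edgeR adjusted p = 0.171). The KO libraries had 270, 284, 303 and 427 reads of it, and counting error alone is larger than their SD. The difference in spread is therefore not a trait of the genotypes that these values can show.

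Psma7 (chr2:180036373-180042433, minus strand) encodes an alpha ring subunit of the core. It had 119.5, 111, 110 and 112.5 CPM in KO libraries, against 94.1, 98.3, 100.6 and 102.5 CPM in WT libraries. The KO values lay close together above the WT values (113 ± 4.24 against 98.9 ± 3.62 CPM, SD, n = 4 each; log2 fold change 0.20, SE 0.063, edgeR adjusted p = 0.183). DESeq2 called it, with an adjusted p of 0.0354, and it was the only one of the 47 that DESeq2 called.

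Psmg1 (chr16:95979933-95990960, minus strand) encodes one partner of the chaperone pair that builds the alpha ring. It had 22.2, 21.5, 20.4 and 21.2 CPM in KO libraries, against 17.2, 18.2, 17.6 and 18.7 CPM in WT libraries, with a narrow spread in both genotypes (log2 fold change 0.25, SE 0.082, edgeR adjusted p = 0.187). Psmb5 (chr14:54613807-54618014, minus strand) carries the chymotrypsin-like site. It had 24.2, 26.4, 24.1 and 31.2 CPM in KO libraries, against 19.4, 20.5, 20.7 and 23.5 CPM in WT libraries. KO library 4 stood highest, and the lowest KO libraries were just above WT library 4 (26.5 ± 3.35 against 21.0 ± 1.76 CPM, SD, n = 4 each; log2 fold change 0.33, SE 0.11, edgeR adjusted p = 0.195).

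**Figure D2:**
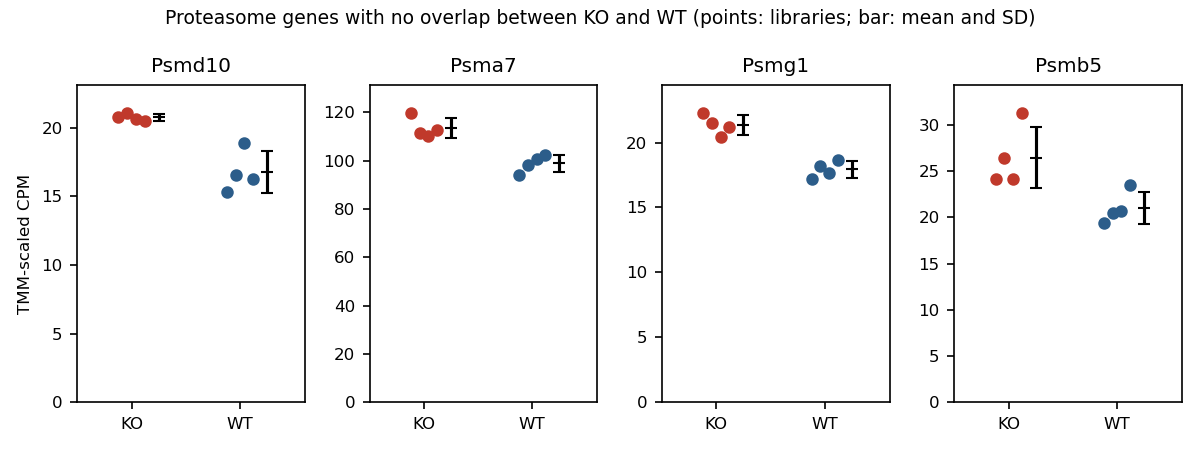
TMM-scaled CPM (y axis, from 0) of Psmd10, Psma7, Psmg1 and Psmb5 in each of the 4 KO (left) and 4 WT (right) libraries; the bar beside the points is the mean and SD. Each KO point is above each WT point; the KO points are nearly level in Psmd10, 20.5 to 21.0 CPM, and spread from 24.1 to 31.2 CPM in Psmb5.

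The sequences before the start sites of these 4 genes are shown because the proteasome genes are known to share regulators that bind there. They are the 250 bases before the RefSeq start, in build GRCm38.p6 and on the gene's strand, with motif matches on either strand in capitals. The motifs are the antioxidant response element core TGACNNNGC, which NRF1 and NRF2 (the products of Nfe2l1 and Nfe2l2) bind, the CCAAT box CCAAT, the GC box GGGCGG, the interferon-stimulated response element core and the gamma-activated site TTCNNNGAA. Psmb5 is at chr14:54617996-54618245 (minus strand), Psmd10 at chrX:140956712-140956961 (minus), Psma7 at chr2:180042465-180042714 (minus) and Psmg1 at chr16:95990961-95991210 (minus).
Psmb5: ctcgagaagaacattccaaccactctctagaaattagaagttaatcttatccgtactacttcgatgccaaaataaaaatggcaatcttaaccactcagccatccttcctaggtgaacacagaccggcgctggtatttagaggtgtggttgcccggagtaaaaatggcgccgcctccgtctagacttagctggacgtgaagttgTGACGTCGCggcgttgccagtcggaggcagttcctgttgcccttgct
Psmd10: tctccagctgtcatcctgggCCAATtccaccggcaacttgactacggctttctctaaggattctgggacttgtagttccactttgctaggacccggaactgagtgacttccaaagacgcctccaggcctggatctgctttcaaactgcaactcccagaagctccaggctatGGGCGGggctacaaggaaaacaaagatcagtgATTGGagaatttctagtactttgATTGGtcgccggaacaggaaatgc
Psma7: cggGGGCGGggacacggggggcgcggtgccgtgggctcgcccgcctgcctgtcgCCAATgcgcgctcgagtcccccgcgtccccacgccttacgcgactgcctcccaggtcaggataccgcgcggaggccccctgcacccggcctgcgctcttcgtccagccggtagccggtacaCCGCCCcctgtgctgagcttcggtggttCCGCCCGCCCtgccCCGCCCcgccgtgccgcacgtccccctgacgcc
Psmg1: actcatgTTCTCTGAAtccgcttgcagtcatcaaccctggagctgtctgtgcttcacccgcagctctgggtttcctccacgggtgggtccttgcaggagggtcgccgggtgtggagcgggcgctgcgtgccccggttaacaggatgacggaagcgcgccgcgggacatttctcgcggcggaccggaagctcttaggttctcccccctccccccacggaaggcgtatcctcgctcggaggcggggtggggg
By GENCODE, 27 bases of the Psmb5 window and 17 of the Psmd10 window, at their ends next to the gene, lie in exons, and the deposited table also places these starts inside the windows, so distances hold for the RefSeq start. Psmb5 held a response element core 47 to 39 bases before that start, and Psmd10 and Psma7 held CCAAT and GC boxes; 2 GC boxes overlap each other in Psma7. Psmg1 held a gamma-activated site only.

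Response element cores were found before 5 proteasome genes: Psmb5 and Psmb6, catalytic subunits, Psmc6, an ATPase, Psmd12, a lid subunit, and Psmd9, a chaperone. They are printed on the strand of the motif with the core in capitals and up to 10 bases on each side, as far as the window reaches. Their places are chr14:54618024-54618052 (minus), chr11:70525338-70525356 (plus), chr14:45329587-45329615 (minus), chr11:107479278-107479299 (minus) and chr5:123228149-123228177 (plus), in the order of the lines.
Psmb5: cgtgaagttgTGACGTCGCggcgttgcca
Psmb6: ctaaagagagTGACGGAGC
Psmc6: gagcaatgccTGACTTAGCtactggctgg
Psmd12: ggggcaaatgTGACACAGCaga
Psmd9: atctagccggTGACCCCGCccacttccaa
The core occurred in 5 of 44 windows of 41 proteasome genes, or 11.4%, and in 10.2% of all 32841 windows of the RefSeq table. The CCAAT box was in 31.8% of proteasome windows and 33.9% of all, and the GC box in 50% and 32.7%. The interferon-stimulated element core was in 6.82% of proteasome windows and 2.98% of all, and the gamma-activated site in 4.55% and 7.02%, the proteasome genes with it being Psmb8 and Psmg1. The 5 tested genes with a response element core had a median log2 fold change of 0.124, and the 35 tested genes with a window but no core had 0.091. The same medians, with and without the motif, were 0.127 and 0.085 for the CCAAT box, 0.091 and 0.096 for the GC box, -0.032 and 0.096 for the interferon-stimulated element core (3 genes with it) and 0.131 and 0.093 for the gamma-activated site (2 genes). Psma8, Psmb1, Psmb2, Psmb7, Psmc3, Psmd3, Psmd7 and Psmg2 were not among the windows.

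By level per exonic length, the 14 constitutive core genes held both the most and the least abundant of the constitutive subunits. Of them 11 had a log2 fold change above 0 and 3 below, with a median of 0.089. By the deposited FPKM, a level per exonic length, Psma6 was highest at 109 ± 7.35 in KO and 98.5 ± 7.38 in WT libraries, and Psmb1 next at 103 ± 4.98 in KO and 99.2 ± 5.18 in WT (SD, n = 4 each). Psma3 was lowest at 3.68 ± 0.178 in KO and 3.53 ± 0.208 in WT libraries, although the assembled core holds each subunit in equal number. The exonic length that divides the counts differed, at 3894 bases for Psma3, 1234 for Psma6 and 1036 for Psmb1. Psma2, with 2668 bases, and Psmb5, with 922, had similar FPKM but mean KO levels of 77.4 and 26.5 CPM. The part of these lengths in the FPKM levels was not tested. The order of the lower levels was Psma3, Psmb3 (9.07 FPKM over all libraries), Psma5 (11.9), Psma4 (21.9), Psmb5 (25.7) and Psma2 (27.8).

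Among the 14 core genes, the lower levels belonged to genes that share sequence with pseudogenes. Between 22.0 and 55.8% of the 50-base stretches of Psma3, Psmb3, Psma5, Psma4 and Psmb5 also occur in another annotated transcript, in each case chiefly a pseudogene, and 50 bases is the read length. These 5 genes, grouped after their levels were seen, had mean levels of 3.61 to 25.7 FPKM. The other 9 core genes had 27.8 to 104 FPKM. Of these Psmb7 shared 28.1%, with the protein-coding gene Nek6, and the rest at most 2.95%. The 17 cap genes did not show this pattern. Psmd2 and Psmc1, which shared most with pseudogenes there (25.6 and 17.6%), had 44.8 and 68.8 FPKM, above the cap median of 37.9. No source says how reads that match several places were counted, and the part of such reads in these levels was not tested. The levels of the 5 genes, Psmb5 included, are therefore uncertain as levels, whereas Psmd10, Psma7 and Psmg1 shared no such stretch. Another gene model overlaps 20 of the 49 genes, 8 on the same strand and 16 on the opposite one.

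**Figure D3:**
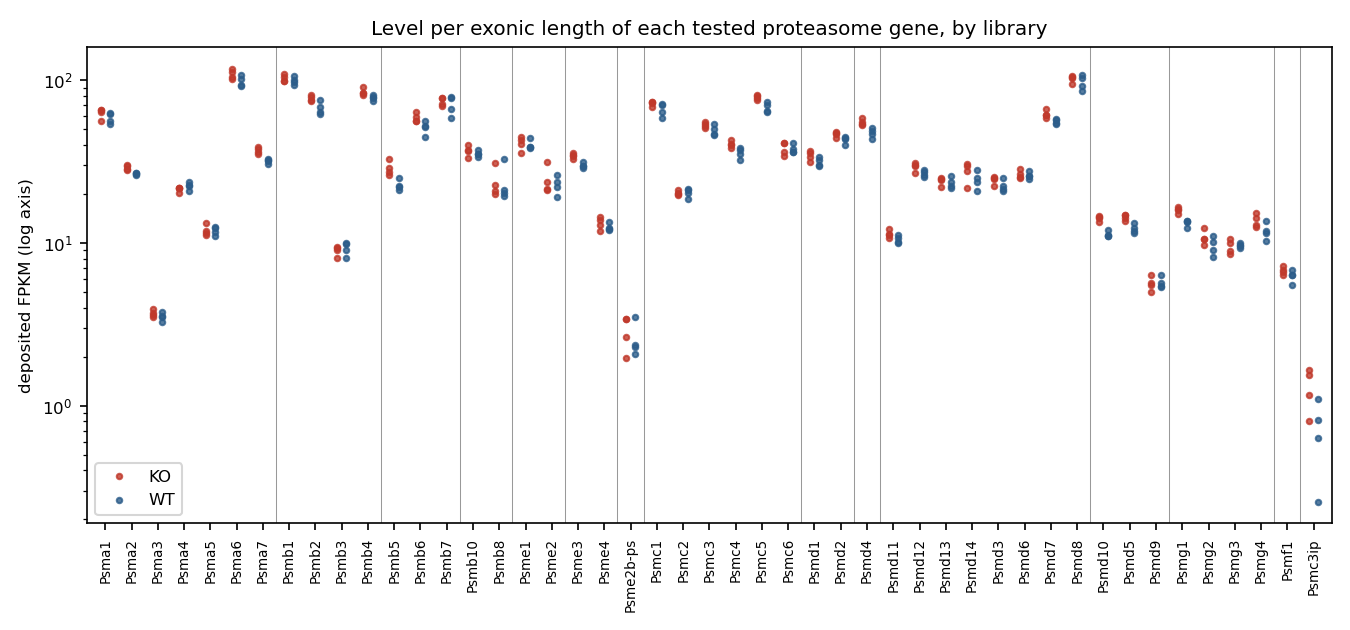
Deposited FPKM (y axis, log scale) of the 47 tested genes in each library, KO to the left of WT for each gene, with lines between roles. Core genes range from Psma3 near 3.61 to Psma6 near 104, and for each gene the 2 genotypes lie close together compared with the differences between genes.

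Catalytic subunits of the constitutive core were all above 0 in log2 fold change, with a median of 0.178 over 3 genes. Psmb6, the caspase-like subunit, had 104, 110, 113 and 109 CPM in KO libraries, against 92.2, 83.8, 103 and 106.5 CPM in WT libraries. WT library 4 was above KO library 1, so the genotypes overlapped (log2 fold change 0.18, SE 0.087, edgeR adjusted p = 0.355). Psmb7, the trypsin-like subunit, had 93.6, 86.3, 80.7 and 97.6 CPM in KO libraries, against 67.3, 81.1, 102 and 95.1 CPM in WT libraries, where the WT libraries covered the whole KO range (log2 fold change 0.05, adjusted p = 0.884).

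Other core genes were close between the genotypes. Psmb2, a structural beta subunit, had 89.0, 97.3, 86.1 and 98.3 CPM in KO libraries, against 72.7, 75.2, 88.0 and 91.9 CPM in WT libraries (log2 fold change 0.18, edgeR adjusted p = 0.399). Psma2, an alpha subunit, had 75.0, 78.7, 72.3 and 83.6 CPM in KO libraries, against 67.3, 70.7, 76.2 and 71.0 CPM in WT libraries (log2 fold change 0.12, adjusted p = 0.461). In both genes the upper WT libraries reached the lower KO ones. Below 0 were Psma4 (log2 fold change -0.084, SE 0.077), Psmb3 (-0.064, SE 0.10) and Psma5 (-0.01, SE 0.12). Of the other 2 core genes with over 20% of stretches shared with a pseudogene, Psmb5 was at 0.33 and Psma3 at 0.043.

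The 17 genes of the 19S cap followed the core, 14 with a log2 fold change above 0 and 3 below, with a median of 0.103. All 17 intervals included no change. Psmd4 encodes the ubiquitin receptor Rpn10. It had 148, 164, 143 and 163 CPM in KO libraries, against 124, 124, 151 and 139 CPM in WT libraries; WT library 3 was above 2 KO libraries (log2 fold change 0.20, SE 0.091, edgeR adjusted p = 0.324).

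Among the 6 ATPases, 4 were above 0 and 2 below. Psmc5, the ATPase Rpt6, had 107, 113, 100.3 and 116 CPM in KO libraries, against 85.0, 88.7, 104 and 103 CPM in WT libraries (log2 fold change 0.20, SE 0.090, edgeR adjusted p = 0.329). WT libraries 3 and 4 were above KO library 3 and below the other 3. The scaffold subunits Psmd1 and Psmd2 had log2 fold changes of 0.11 and 0.091, and the 8 lid genes a median of 0.094. Psmd14, the lid enzyme that removes ubiquitin chains, had 27.4 ± 3.99 FPKM in KO and 24.4 ± 2.91 FPKM in WT libraries (SD, n = 4 each; adjusted p = 0.668), with the widest interval of the cap genes, -0.20 to 0.51.

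The 7 assembly chaperones had a median log2 fold change of 0.201, with 5 above 0 and 2 below, at low levels of 5.66 to 14.6 FPKM. Besides Psmd10 and Psmg1, Psmd5, a chaperone of the base also known as S5B, had 50.6, 51.0, 44.5 and 50.8 CPM in KO libraries, against 38.3, 42.6, 42.2 and 46.0 CPM in WT libraries. KO library 3 alone fell into the WT range (log2 fold change 0.22, SE 0.080, edgeR adjusted p = 0.228). Psmg4 had a log2 fold change of 0.20 (SE 0.14) and Psmg2 of 0.15 (SE 0.13), while Psmd9 was at -0.032 (SE 0.10) and Psmg3 at -0.035 (SE 0.13). None of the 7 passed over all genes.

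Of the activators outside the immunoproteasome, Psme3 (PA28 gamma, which caps the core in the nucleus) had 105, 101, 92.7 and 106 CPM in KO libraries, against 82.7, 85.5, 93.3 and 93.3 CPM in WT libraries. Only KO library 3 reached into the WT values (log2 fold change 0.19, SE 0.075, edgeR adjusted p = 0.256). Psme4 (PA200) had 121, 115, 103 and 103 CPM in KO libraries, against 94.4, 103, 121 and 104 CPM in WT libraries, which overlapped throughout (log2 fold change 0.064, adjusted p = 0.785). Psmf1, the regulator PI31, had a log2 fold change of 0.091 (SE 0.098).

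Psmc3ip, not a subunit, had the largest log2 fold change of the 47, 0.89 (SE 0.40, edgeR adjusted p = 0.321), at very low counts. It had 19, 38, 42 and 46 reads in KO libraries 1 to 4, against 22, 8, 15 and 23 reads in WT libraries, or 1.46, 2.82, 2.86 and 2.21 CPM against 1.89, 0.470, 1.23 and 1.51 CPM. KO library 1 lay below 2 WT libraries. Its gene overlaps Mlx on the opposite strand, and no source says whether reads were counted by strand, so their assignment is uncertain.

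The subunit forms of other tissues were near or at the floor. Psma8, the alpha subunit of male germ cells, did not pass the filter, with 15, 15, 7 and 11 reads in KO libraries and 2, 7, 9 and 4 in WT libraries, 48 against 22 reads in all. The 6 testis germ cell markers summed to 0.770 to 5.56 CPM in KO and 0.393 to 3.01 CPM in WT libraries, with Tnp1, Prm1, Acrv1 and Sycp1 at 0 in some library. Psmb11, the beta subunit of thymic cortex, had 0 reads in each library, which allows up to 0.138 to 0.232 CPM in KO libraries and 0.175 to 0.273 CPM in WT libraries, by counting error alone.

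Immunoproteasome genes did not separate the genotypes. Their 4 log2 fold changes ran from 0.011 to 0.084, with a median of 0.03, and 0 were called (edgeR, DESeq2 and limma-voom; 0 at an unadjusted p under 0.05). Psmb8 (LMP7, the counterpart of Psmb5, at chr17:34197721-34201454, plus strand) had 84.8, 56.8, 59.6 and 57.2 CPM in KO libraries, against 84.5, 58.3, 59.6 and 54.1 CPM in WT libraries. Each genotype had 1 high library, number 1, and 3 that lay together (64.6 ± 13.5 against 64.1 ± 13.8 CPM, SD, n = 4 each; log2 fold change 0.01, interval -0.39 to 0.41, edgeR adjusted p = 0.984).

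Psmb10 (MECL-1, the counterpart of Psmb7) had 46.7, 41.8, 45.2 and 52.7 CPM in KO libraries, against 44.8, 43.0, 48.0 and 45.3 CPM in WT libraries (log2 fold change 0.043, interval -0.15 to 0.23, edgeR adjusted p = 0.844). Psme1, the alpha chain of the interferon-induced activator PA28, had 98.0, 94.8, 85.7 and 82.2 CPM in KO libraries, against 92.4, 86.2, 91.7 and 86.1 CPM in WT libraries (log2 fold change 0.017, interval -0.16 to 0.19, adjusted p = 0.938). The WT values lay inside the KO range for Psmb10 and for Psme1. Psme2, its beta chain, had 54.8, 41.5, 36.0 and 39.1 CPM in KO libraries, against 39.7, 38.9, 49.0 and 34.1 CPM in WT libraries (log2 fold change 0.084, interval -0.26 to 0.43, adjusted p = 0.8291). Psme2 and its copy Psme2b-ps share 54.9% and 69.3% of their 50-base stretches with other genes, so their counts are uncertain, and antisense gene models overlap Psmb8 and Psmb10.

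The high Psmb8 libraries were those with the most leukocyte marker RNA. The leukocyte sums were 1451, 1015, 1198 and 1229 CPM in KO libraries 1 to 4 and 1673, 1115, 889 and 989 CPM in WT libraries 1 to 4. Across the 8 libraries, which share their scaling, the correlation of Psmb8 with this sum was 0.84 (Pearson; Spearman 0.64), as a description; for Psmb10, Psme1 and Psme2 it was 0.078, 0.22 and 0.12. In bulk tissue, more cells of a type and more RNA per cell cannot be told apart. The part of the leukocyte content in the Psmb8 values was not tested.

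**Figure D4:**
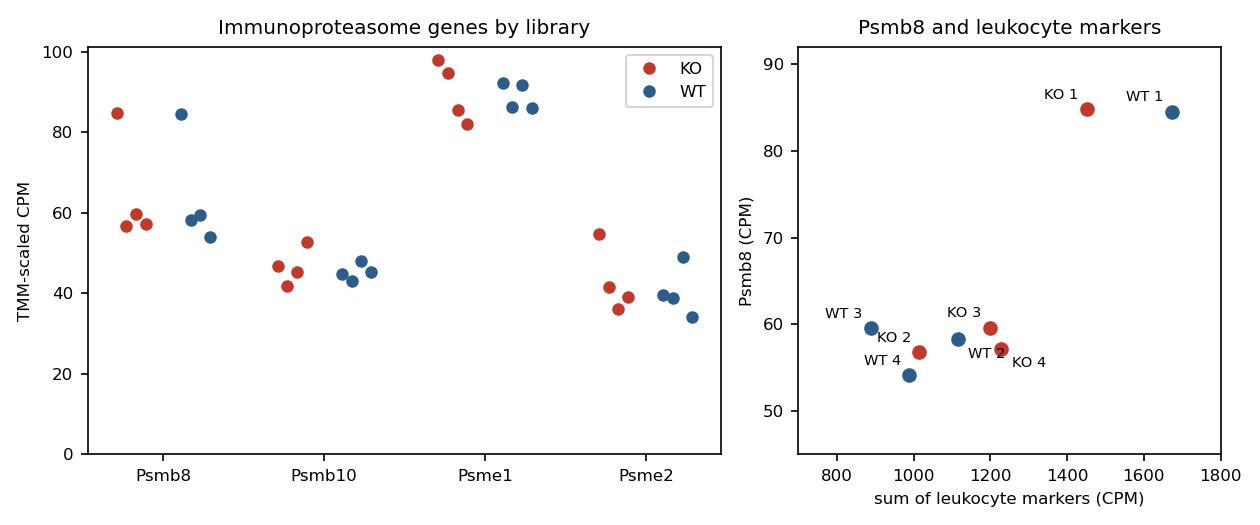
Left, TMM-scaled CPM (y axis, from 0) of Psmb8, Psmb10, Psme1 and Psme2 in the 4 KO and 4 WT libraries, KO to the left for each gene. Right, Psmb8 CPM (axis not from 0) against the summed CPM of the leukocyte markers for each library; KO library 1 and WT library 1, at 84.8 and 84.5 CPM, lie apart from the other 6.

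The balance of immunoproteasome to constitutive subunits was compared per exonic length in 2 pairs. The ratio of Psmb8 to Psmb5 was 1.18, 0.725, 0.833 and 0.617 in KO libraries, against 1.47, 0.958, 0.971 and 0.775 in WT libraries. The genotypes overlapped, with KO library 1 above 3 WT libraries and WT library 4 among the lower KO libraries. The mean log2 ratio was -0.30 ± 0.40 in KO and 0.022 ± 0.39 in WT libraries (SD, n = 4 each), a difference of -0.32 (two-sided exact permutation p = 0.286, 0.571 adjusted over the 2 pairs). The ratio of Psmb10 to Psmb7 was 0.477, 0.463, 0.536 and 0.516 in KO libraries, against 0.637, 0.507, 0.448 and 0.455 in WT libraries, a difference in mean log2 ratio of -0.028 (two-sided exact permutation p = 0.914, also adjusted). The smallest p this test can give is 0.0286.

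Constitutive subunits varied together from mouse to mouse. Over the 465 pairs of the 31 constitutive core and cap genes, the median correlation across the 8 libraries was 0.66, from -0.52 to 0.98, and 95.3% were positive. All genes of a library share its scaling, and pairs of other genes were not computed for comparison. WT library 1 was the lowest library for 24 of the 31 genes and KO library 4 the highest for 15. Each gene taken against its own mean, the median over the 31 was 0.044, 0.085, -0.073 and 0.121 (log2) in KO libraries 1 to 4 and -0.214, -0.106, 0.083 and 0.006 in WT libraries 1 to 4. KO library 3 thus sat below WT libraries 3 and 4, with 7 of 31 genes above their own mean, against 25 and 20 in those WT libraries.

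**Figure D5:**
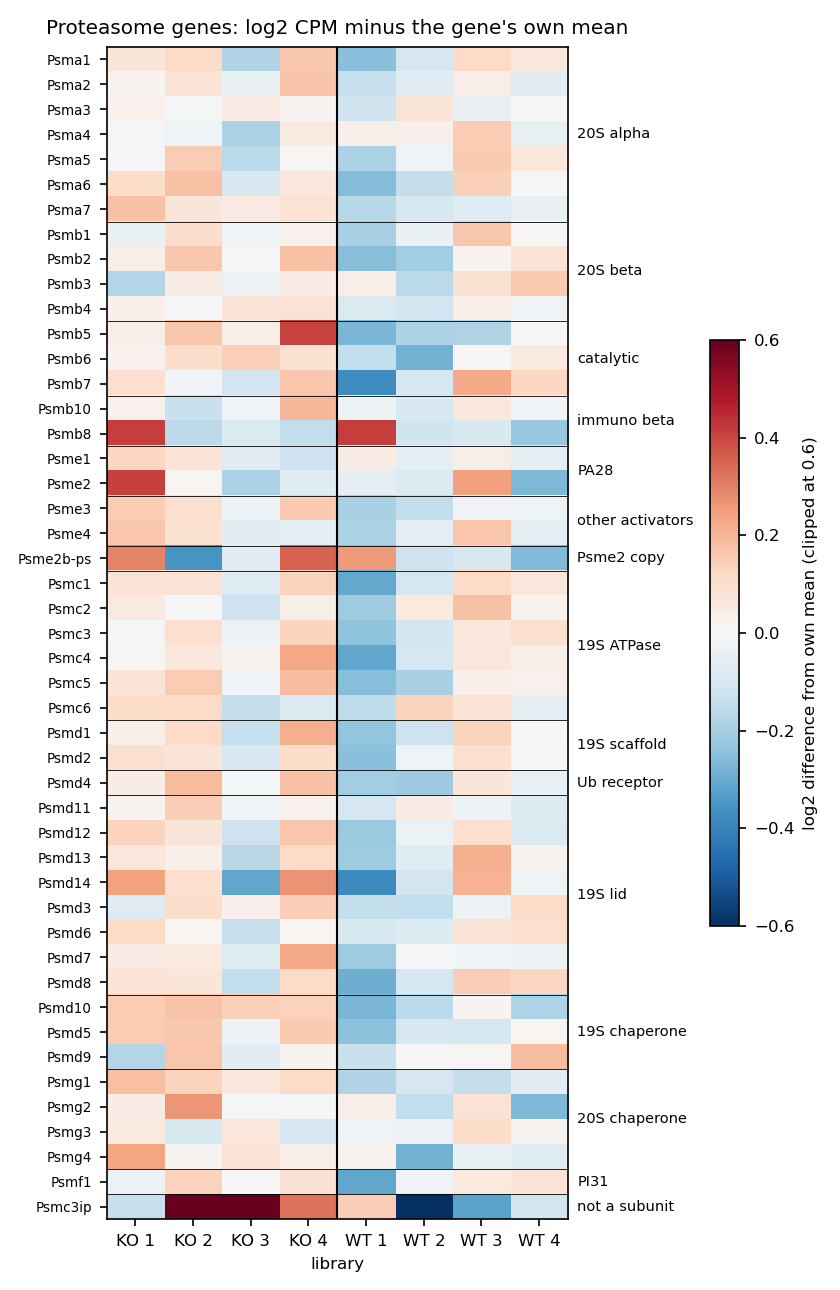
Log2 CPM of each tested gene minus its own mean over the 8 libraries (colour, from -0.6 in blue to 0.6 in red, clipped), with KO libraries left of the line and WT libraries right of it. The column of WT library 1 is blue in most core and cap genes and that of KO library 4 red, while Psmb8 is red in library 1 of both genotypes.

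Of the 31 genes, 11 correlated above 0.9 with the mean of the others, led by Psmc1 (0.98), an ATPase, and Psmd1 (0.97), the large scaffold of the base. Among the 14753 genes outside the family, 205 (1.39%) exceeded 0.9 with the family mean. Psmb3 (0.16), Psma4 (0.20) and Psma3 (0.29) followed the family least. The share of stretches found in other genes was 55.8, 23.7 and 22.0% for these genes, 17.6% for Psmc1 and 25.6% for Psmd2 (correlation 0.96). Psma5 (55.4%) and Psmb5 (54.1%) were at 0.78 and 0.69. Per library, Psmb3 had 239 to 448 reads, Psma4 617 to 1121, Psma3 150 to 296, Psma5 160 to 329 and Psmc1 981 to 2396. The part of shared sequence and of read number in these correlations was not tested. The family mean ran against the TMM factor (Pearson -0.76 over the 8 libraries, -0.95 once the genotype means were removed). Each CPM value is divided by that factor, so the mean and the factor are not independent and a negative correlation is partly built in. The marker sums share the same divisor. Against the leukocyte sum the family mean had -0.58 and -0.76. For the adipocyte sum the values were 0.092 over the 8 libraries and 0.65 with the genotype means removed, and for the duct epithelium sum 0.14 and -0.35. The part of scaling and of cell content in these shared shifts was not tested.

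The genes outside the family most like it over the 8 libraries were Hspb6, a small heat shock protein (correlation with the family mean 0.988), Zfand3 (0.984), BC004004 (0.982), Tkt, the pentose phosphate enzyme transketolase (0.980), and Emc3, a subunit of the membrane protein insertase of the endoplasmic reticulum (0.976). None of the 5 was called between the genotypes, and Tkt had the lowest adjusted p (log2 fold change 0.41, edgeR adjusted p = 0.361).

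In 6 lists of genes that work with the proteasome, edgeR and limma-voom called 0 genes in either direction, and DESeq2 called 1, H2-D1, where DESeq2 called 5.48% of all genes. Those at an unadjusted p under 0.05 (edgeR) numbered 0 of 12 among the partners, 2 of 26 among the ubiquitin and conjugating enzymes, 2 of 15 among the shuttles, 1 of 14 among the NRF1 and NRF2 regulators, 3 of 12 in MHC class I loading and 1 of 16 in interferon signalling, beside 16.2% of all genes. Of 12 tested partners outside the Psm names, 8 were above 0 and 4 below, with a median log2 fold change of 0.093, beside 47.6% of all genes above 0 and their median of -0.013. They were led by Fbxo7, a PI31-binding F-box protein, at 28.8 ± 2.21 CPM in KO and 25.8 ± 1.099 CPM in WT libraries (SD, n = 4 each; log2 fold change 0.16, edgeR adjusted p = 0.384), Shfm1, a small cap subunit (0.15, adjusted p = 0.400), and Usp14, a cap-bound deubiquitinase (0.18, adjusted p = 0.406). Among 15 ubiquitin shuttles and p97 cofactors 14 were above 0, with a median of 0.096. The exception was Ufd1l, a p97 cofactor, at 76.6, 73.1, 66.1 and 76.5 CPM in KO libraries, against 76.6, 80.6, 88.0 and 89.8 CPM in WT libraries, with the highest KO library just below the lowest WT library (log2 fold change -0.20, adjusted p = 0.269).

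Ubiquitin and conjugating enzymes were divided, 12 above 0 and 14 below, with a median of -0.01, which was 0.007 with library totals as the scaling. Skp1a, a scaffold of SCF ubiquitin ligases, had 173 ± 8.45 CPM in KO and 135 ± 28.4 CPM in WT libraries (SD, n = 4 each; log2 fold change 0.36, edgeR adjusted p = 0.243). The E2 enzymes Cdc34 (0.25, adjusted p = 0.250) and Ube2k (0.23, adjusted p = 0.342) followed. Of 14 regulators of NRF1 and NRF2, 3 were above 0 and 11 below, with a median of -0.062, beside 47.6% of all genes above 0. Hcfc1, a partner of the O-GlcNAc transferase Ogt, had 106 ± 17.4 CPM in KO and 139.5 ± 19.6 CPM in WT libraries (log2 fold change -0.40, adjusted p = 0.205), Nfe2l2 had 123 ± 8.52 and 137 ± 6.57 CPM (-0.15, adjusted p = 0.365), and Ddi2, the protease that activates NRF1, had 79.9 ± 2.16 and 87.0 ± 7.24 CPM (-0.12, adjusted p = 0.465). Nfe2l1 itself had 568 ± 59 CPM in KO and 628 ± 86.7 CPM in WT libraries (log2 fold change -0.14, adjusted p = 0.620); it was added to those named after its value was seen.

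The MHC class I and interferon lists, downstream and upstream of the immunoproteasome, had more members below 0 than above, under each of the 4 scalings. Of all genes, 47.58 to 50.73% were above 0 under these scalings. Of 12 genes of MHC class I peptide loading 2 were above 0 and 10 below, with a median of -0.075. H2-D1, a class I heavy chain, had 998, 912, 1014 and 893 CPM in KO libraries, against 1344, 1336, 1272 and 1183 CPM in WT libraries, without overlap (log2 fold change -0.43, SE 0.097, edgeR adjusted p = 0.107); its close relatives in the genome make the count uncertain. Nlrc5, the class I transactivator, had a log2 fold change of -0.55 (adjusted p = 0.226) and Calr, a chaperone of class I loading, -0.19 (adjusted p = 0.301). Of 16 interferon signalling genes 6 were above 0 and 10 below, with a median of -0.072. Ifngr2, a chain of the interferon-gamma receptor, had 43.2 ± 1.81 CPM in KO and 49.3 ± 0.709 CPM in WT libraries (SD, n = 4 each; log2 fold change -0.19, adjusted p = 0.186), Ifnar1 a log2 fold change of -0.10 (adjusted p = 0.542) and Irf2 of 0.15 (adjusted p = 0.630).

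KO libraries 2 and 3, which the duct epithelium markers set apart, were left out together as an alternative. Without both, 42 of the 47 genes had a log2 fold change above 0, with a median of 0.157, 0 were called (edgeR, with 1294 genes of the table at an unadjusted p under 0.05), and 14 had both remaining KO libraries above all WT libraries, which 9.91% of all genes did. Leaving out one library at a time, the median over the 47 ran from 0.066 without WT library 1 to 0.156 without KO library 3. Compared with 8402 other genes of the same CPM range, 14.1 to 182, of which 44.55% were above 0 with a median of -0.024, the 31 constitutive genes had 80.65% above 0 with a median of 0.096 and a slightly smaller standard error of the log2 fold change (median 0.093 against 0.11).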

How the data were processed

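Polyadenylated RNA of epididymal fat was sequenced as stranded single reads of 50 cycles, per the labels' protocols. Novoalign 2.8.1, Picard and build mm10 appear in the submitters' processing notes; no source names the counting program, its use of strand or the annotation. The authors deposited 1 table that holds a raw count and an FPKM value for each gene and library, per the file headers. All 158499 FPKM values above 0 equal the count divided by exonic length and library total, on the FPKM scale, within 0.1%; they were used as levels per length. Starts in the table are counted from 0 and were raised by 1.

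Counts were tested with edgeR 4.0.16 in R 4.3.3: filterByExpr with a minimum count of 10, TMM scaling, the quasi-likelihood test of KO over WT with no covariate, and Benjamini-Hochberg adjustment over all 14800 genes, called at 0.05. Ratios were compared by two-sided exact permutation over 70 assignments. Groups, replicate numbers and the comparison come from the titles, and no pair of libraries of a genotype agreed within sampling noise (lowest chi-square per gene 19.5). The labels number the mice, so p-values measure the spread between these mice. Correlations use log2 CPM with a prior count of 2. Alternatives were other scalings and filters, DESeq2 1.42.0, voom of limma 3.58.1, robust edgeR, a replicate block, each library left out, and KO libraries 2 and 3 left out together. Promoter windows are RefSeq's for GRCm38.p6; shared stretches were searched in GENCODE transcripts. The test was checked on simulated counts.

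The members and lists were chosen with earlier results of these data known. Named genes are the immunoproteasome genes and their constitutive partners, called genes, the 12 with the lowest p, and up to 3 per list; other names were chosen after their values were seen. Of 3 planned ratios 2 were computed, since Psmb9 was not analysed here.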

Additional observations from a re-analysis of the deposited data

Results flagged for a closer look

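Single libraries far from the other 3 of their genotype were looked for in the 47 tested genes, the 2 ratios and the median deviation of the constitutive genes, 100 groups of 4 libraries in all; chance flags about 1 in 20 groups, and 3 were flagged here. Psmb8 had 84.8 CPM in KO library 1, against 56.8 to 59.6 CPM in the other KO libraries, with a leukocyte marker sum of 1451 CPM in that library and 1015 to 1229 CPM in the others. Psmd5 had 44.5 CPM in KO library 3, against 50.6 to 51.0 CPM in the other KO libraries. Psmd7, a lid subunit, had 80.8 CPM in WT library 1, against 91.7 to 93.2 CPM in the other WT libraries.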

How the results depend on the processing

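No proteasome gene was called by limma-voom, or by edgeR under any scaling, filter, left-out library or block that was run. It was 0 of 48 without the filter on low counts and 0 of 47 in every other case. In the reported edgeR fit 60 genes of the table passed, with 2394 at an unadjusted p under 0.05. DESeq2 called 810 genes, of which 1 was Psma7 (adjusted p = 0.0354). The replicate block called 14 genes and 0 of the 47, with a median log2 fold change over the 47 of 0.1. The deviations of same-numbered libraries correlated above 0.1 for 1 of 4 numbers, which was number 1 (0.184). KO library 1 and WT library 1 were the 2 of 8 libraries that correlated best with their own number. So few values cannot settle whether libraries were paired. Without KO libraries 2 and 3 there were 3 calls, and leaving out each library in turn gave 0 to 290 (0 without KO library 2, edgeR, with 1573 at an unadjusted p under 0.05; 290 without KO library 1). The median over the 47 stayed between 0.066 and 0.157. Leaving out each library in turn, the log2 fold change ran from -0.149 to 0.173 for Psmb8, from -0.021 to 0.097 for Psmb10, from -0.028 to 0.06 for Psme1, from -0.058 to 0.192 for Psme2 and from -0.05 to 0.144 for Psmb7, so their signs are not settled; the Psmb10 to Psmb7 difference ran from -0.087 to 0.082 and that of Psmb8 to Psmb5 from -0.496 to -0.138. The causes were not tested. With a median standard error of 0.095, changes as small as the family's median were not detectable for single genes in 4 against 4 libraries.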
